A study of Mus musculus with 2 samples.

Results

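The 10 genes described here carry the constant parts of antibodies or serve their secretion: Ighm, Ighd, Igha, Ighg1, Ighg2b and Ighg2c (the heavy chains of IgM, IgD, IgA, IgG1, IgG2b and IgG2c), Igkc (the kappa light chain), Jchain, Mzb1 and Derl3. They were chosen by name from the 24785 genes of the count tables of both libraries, so no measured value decided which genes entered. All 10 were listed for the naive library and 9 for the BLM library, where Ighg2c was not listed and was taken as 0. Living CD45+ leukocytes had been sorted from lungs of C57BL/6N mice and profiled as single cells on the BD Rhapsody microwell platform. The BLM library came from lungs 15 days after 50 µg of intratracheal bleomycin, whose lung injury ends in fibrosis, given to mice 10 to 16 weeks old. The naive library came from untreated lungs of the same strain, with no age stated apart. Each library was 1 pool of cells from 3 mice, so group, library and preparation cannot be told apart, no test between groups was possible, and every interval given below (95%) covers counting error only.

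A B cell first displays IgM and IgD, both spliced from one long transcript, as its membrane receptor. Class switching then replaces the constant part by that of IgG, IgE or IgA. When a B cell becomes an antibody-secreting plasma cell, transcription of the heavy and light chains rises steeply, the endoplasmic reticulum (ER) expands, and most other B cell genes are turned down. Jchain encodes the joining chain that links IgM into pentamers and IgA into dimers and carries both across epithelia, which makes it of particular interest in a mucosal organ such as the lung. Mzb1 encodes an ER protein of marginal zone and B-1 B cells that helps IgM fold, and Derl3 a derlin of the channel through which misfolded proteins leave the ER.

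On the mouse build GRCm38 the 8 heavy-chain constant genes lie on the minus strand of chromosome 12 within 167901 bases, in the order Ighm, Ighd, Ighg3, Ighg1, Ighg2b, Ighg2c, Ighe and Igha. Ighm, the first used in development, spans chr12:113418558-113422730, and Igha, the last in the order of switching, spans chr12:113254830-113260236. Igkc lies at chr6:70726435-70726966 on the plus strand, Jchain at chr5:88519809-88527891 on the minus strand and Derl3 at chr10:75893413-75895941 on the plus strand. The IgG genes are close copies of one another, which limits how far a single UMI (1 captured transcript molecule) can be assigned between them. The longest stretch that the annotated Ighg2b and Ighg2c transcripts share without a mismatch is 78 bases long, and it is printed because both genes were counted together in the naive cells described below.

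Ighg2b and Ighg2c shared stretch: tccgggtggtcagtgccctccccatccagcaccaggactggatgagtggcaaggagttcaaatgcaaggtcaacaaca

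The counts also join the membrane and secreted forms of each heavy chain. Mzb1 was left out of the positions above and of the promoter search. Of the promoters of the other genes, from 250 bases before to 50 bases after the start site, those of Jchain and Derl3 were found in the RefSeq table (GRCm38.p6). They are printed because most UMIs of both genes lay in the immunoglobulin-rich cells described below. In the Derl3 promoter (chr10:75893148-75893447, plus strand) capitals mark matches of CCAAT and CCACG on either strand. In the Jchain promoter (chr5:88527848-88528147, minus strand) none of the letters searched was found, so it has no capitals.

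Derl3 promoter: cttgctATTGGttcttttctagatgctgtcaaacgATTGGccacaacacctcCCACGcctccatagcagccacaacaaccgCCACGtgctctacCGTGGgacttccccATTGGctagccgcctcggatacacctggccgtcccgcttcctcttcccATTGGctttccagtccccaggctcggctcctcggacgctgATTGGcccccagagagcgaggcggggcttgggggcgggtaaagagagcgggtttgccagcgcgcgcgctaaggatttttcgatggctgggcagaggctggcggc
Jchain promoter: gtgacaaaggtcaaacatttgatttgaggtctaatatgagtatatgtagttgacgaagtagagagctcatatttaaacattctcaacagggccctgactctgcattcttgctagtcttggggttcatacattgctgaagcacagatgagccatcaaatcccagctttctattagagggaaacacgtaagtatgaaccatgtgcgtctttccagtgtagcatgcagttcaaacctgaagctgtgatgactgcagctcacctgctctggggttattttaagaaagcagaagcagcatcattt

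CCAAT matched 5 times and CCACG 3 times in the Derl3 window. A CCAAT and a CCACG 9 bases apart, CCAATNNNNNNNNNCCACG, the layout of the ER stress response element that ATF6 and XBP1 are known to use, matched once, on the minus strand, 156 bases before the start site. This layout occurred in 39 of 32851 promoters of the same length (0.119%), CCAAT alone in 37.4% and CCACG alone in 32.8%. The XBP1-type motif TGACGTG (2.01% of promoters) and the octamer ATGCAAAT (1.74%) matched neither promoter. A match is a description of letters and not a measured site.

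The BLM library held 4714 barcodes with 22490782 UMIs and the naive library 4062 barcodes with 18019004 UMIs, and 22 barcode sequences occurred in both (17 among the cells kept). After filters on gene number, mitochondrial share and doublet score, 4391 BLM and 3808 naive cells remained, at a median of 2380 and 2700.5 UMIs. Clusters were built without the immunoglobulin genes, Jchain, Mzb1 and Derl3, so none of the 10 genes defined a class. B-like clusters, named from Cd79a, Cd79b, Ms4a1 and other B cell markers, held 633 BLM and 803 naive cells. No B-lineage sub-cluster met the markers of plasma cells, and no cluster met those of plasmacytoid dendritic cells. By the rule set for that case, B-lineage cells with UMIs of 3 or more of 7 secretory genes (Sdc1, Tnfrsf17, Prdm1, Txndc5, Fkbp11, Creld2 and Tent5c) were taken as plasma-like, which gave 3 BLM and 17 naive cells. The doublet filter bore directly on this result. Unlike the clusters, its scores were computed with the 10 genes and the other immunoglobulin genes left in. The automatic doublet threshold marked 8 BLM barcodes (0.177%) and 61 naive barcodes (1.55%), so the top 3% of scores were left out of each library, and 6 of the 9 BLM barcodes richest in immunoglobulin UMIs were among them, against 0 of 12 naive ones. The results on immunoglobulin-rich barcodes are therefore given with and without the 6 left out.

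In B-like cells the main receptor genes were lower in the BLM library by about the same amount, while Igha and Ighg2b were higher on few UMIs. Ighm gave 3734 UMIs in BLM and 6797 in naive B-like cells, or 2828 and 3664 CPM (counts scaled to a sum of 1000000 over all UMIs of these cells), a log2 ratio of BLM over naive of −0.37 (−0.43 to −0.32). Ighd, the IgD heavy chain, gave 1025 and 1317 CPM, a log2 ratio of −0.36 (−0.46 to −0.27). Igkc gave 5973 and 7985 CPM, a log2 ratio of −0.42 (−0.46 to −0.38). All 3 intervals lay below 0 and overlapped one another. Mzb1, the ER helper of IgM folding, was closer to equal, at 288 and 334 CPM, a log2 ratio of −0.22 (−0.40 to −0.03). The median log2 ratio over all 8762 genes with 20 or more UMIs was −0.10, so Ighm, Ighd and Igkc sat below it.

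The switched isotypes and Jchain were rare in B-like cells and rested on few of them. Igha, the heavy chain of mucosal antibodies, gave 17 UMIs in 11 BLM cells and 6 UMIs in 6 naive cells, 12.9 and 3.23 CPM, a log2 ratio of 1.99 (0.58 to 3.62). Ighg2b gave 39 UMIs in 10 BLM cells, up to 11 in a cell, and 26 UMIs in 24 naive cells, up to 3 in a cell, 29.5 and 14.0 CPM, a log2 ratio of 1.08 (0.32 to 1.85). The BLM UMIs of Ighg2b were thus concentrated in few cells and the naive ones spread thinly. Ighg2c gave 0 UMIs in BLM, where the limit of 3 counts is 2.27 CPM, and 13 UMIs in 13 naive cells (7.01 CPM). The interval of its log2 ratio had its upper end at −1.12. Ighg1 gave 1 UMI in BLM and 0 in naive B-like cells, and Derl3 gave 2 and 6 UMIs. Jchain gave 25 UMIs in 6 BLM cells and 32 in 26 naive cells, a log2 ratio of 0.13 (−0.68 to 0.93). A single BLM cell, itself among the immunoglobulin-rich barcodes below, held 19 of the 25, and without the highest cell of each library the log2 ratio was −1.73 (−3.30 to −0.44), so the direction for Jchain rested on that cell.

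**Figure D1:**
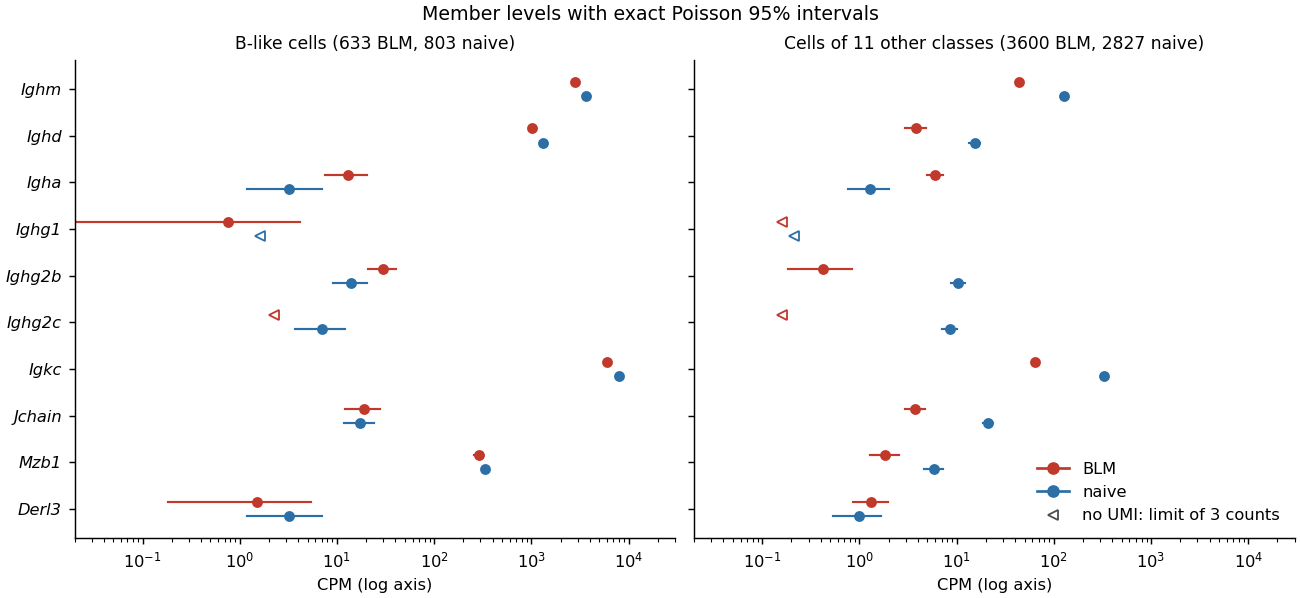
Levels of the 10 genes in B-like cells (left) and in cells of 11 other classes (right), in CPM on a log axis, in the BLM (red) and naive (blue) library, with points for levels, lines for exact Poisson 95% intervals and open triangles for the limit that 0 UMIs allow. Ighm, Ighd, Igkc and Mzb1 are near each other between libraries on the left (2828 against 3664 CPM for Ighm) and far apart on the right (44.1 against 126 CPM), while Igha lies higher in the BLM library on both sides.

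Of the 10 genes, 7 had 20 or more UMIs in B-like cells. Past 2-fold, 2 of these were higher in BLM (Igha and Ighg2b), beside 1.46% of all genes (128 of 8762), and 0 were lower, beside 4.71% (413). Igha passed the minimum mainly through its BLM UMIs (17, beside 6 naive), and Ighg2c (0 and 13) fell below it. The counts thus depend on the minimum and are not read as a result. Over the 10 genes together the level was 10177 CPM in BLM and 13344 CPM in naive B-like cells, a log2 ratio of −0.39 (−0.42 to −0.36). The other constant genes were also lower in BLM. Iglc2, the most counted lambda light chain, gave 350 and 562 CPM, a log2 ratio of −0.68 (−0.85 to −0.52), Iglc1 had a log2 ratio of −0.72 (−1.10 to −0.35), Iglc3 one of −0.80 (−1.03 to −0.57), and Ighg3 (4 and 28 UMIs) one of −2.32 (−4.29 to −0.80).

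The share of B-like cells with a UMI was also lower in BLM for the receptor genes, while for most rare genes it was close to that of other cells. Ighm was seen in 93.2% (90.96 to 95.04) of BLM and 98.6% (97.6 to 99.3) of naive B-like cells, and, after each cell was thinned to 1000 UMIs (606 and 791 cells were deep enough), in 86.4% and 92.7%. Ighd was seen in 76.9% and 84.3%, thinned 61.1% and 68.5%. Igkc was seen in 92.9% and 96.8%, thinned 90.7% and 94.7%, and Mzb1 in 34.6% and 43.0%, thinned 20.9% and 24.5%. The median depth was 1654 UMIs in BLM and 1943 in naive B-like cells, against 2582 and 3229 in the cells of other classes that serve as background. There Ighm was seen in 16.7% and 38.1%, Igkc in 22.5% and 65.1%, and Mzb1 in 0.917% and 2.48%, well below the B-like shares. Jchain was seen in 0.948% of BLM and 3.24% of naive B-like cells against 1.89% and 9.48% of the other cells, and thinned in 0.656% and 1.46% against 0.341% and 2.24%. In naive cells Jchain was thus at background by both measures. In BLM the order depended on depth and the thinned share included the single high cell, so none is read. Ighg2c in naive B-like cells was at 1.62% against 4.21% of other cells, and thinned 0.764% against 0.770%, no more than background. The unthinned order turned after thinning for Ighg2b in naive cells (2.99% against 4.85%, thinned 1.33% against 0.978%) and for Igha in BLM cells (1.74% against 2.89%, thinned 0.829% against 0.732%), and the thinned orders matched those of the CPM. Ighg2b in BLM stood apart, with 1.58% (0.760 to 2.89) of B-like cells against 0.0556% (0.00673 to 0.201) of the others, and thinned 1.09% against 0.0214%.

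Most B-like cells carried IgM and IgD transcripts together, the pattern of mature B cells that have not switched. Both were seen in 459 of 633 BLM cells (72.5%, 68.9 to 76.0) and in 670 of 803 naive cells (83.4%, 80.7 to 85.9). Only Ighm was seen in 20.7% and 15.2%, only Ighd in 4.42% and 0.872%. The balance of both genes was nearly equal in the libraries, with Ighm at 72.5% of all heavy-chain UMIs in BLM and 73.0% in naive cells, and Ighd at 26.3% and 26.2%. Switched heavy chains outnumbered Ighm and Ighd in 6 BLM cells (0.948%, 0.349 to 2.05) and in 1 naive cell (0.125%, 0.00315 to 0.692). Lambda exceeded kappa in 11 of 510 BLM cells with 5 or more light-chain UMIs (2.16%, 1.08 to 3.83) and in 37 of 759 naive cells (4.87%, 3.46 to 6.66).

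One B-like sub-cluster, led by Ms4a1, Ly6d and Cd79b, differed from the rest by its low IgD. It held 84 BLM and 79 naive cells, at a median of 3801.5 and 4298 UMIs, the deepest of the sub-clusters. Ighm reached 3649 CPM there in BLM and 5637 CPM in naive cells, while Ighd reached 332 and 378 CPM. The count of Ighm per Ighd was 10.975 in BLM and 14.9 in naive cells, against 1.64 to 3.15 in the other sub-clusters of both libraries. After thinning, Ighd was seen in 25.9% and 27.0015% of its cells, against 60.9% to 68.9% of BLM cells and 60.1% to 76.9% of naive cells elsewhere, leaving out a sub-cluster led by Ifit3 with 1 BLM cell. Mzb1 was also at its highest in it, at 418 and 521 CPM, among sub-clusters with 20 or more cells in each library. The lower Ighm of the BLM library held within the 5 larger sub-clusters, with log2 ratios from −0.63 (−0.73 to −0.53) in this sub-cluster to −0.31 (−0.43 to −0.19) in the largest one, led by Fcer2a, Scd1 and Cd79a. Ighd per sub-cluster ran from −0.26 (−0.51 to −0.01) to 0.06 (−0.36 to 0.49), closer to 0 than in all B-like cells. The sub-cluster rich in Ighd per Ighm, led by Fcer2a, made up 35.7% of BLM and 56.9% of naive B-like cells, and its part in the Ighd difference was not tested.

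High-immunoglobulin barcodes were found by the share of a barcode's UMIs that came from immunoglobulin genes, whatever its class or doublet score. This definition, at 5% or more, was chosen after the values were seen, because the barcodes fell apart into those at 10.1% or more and a rest that ended at 4.45% in naive and 3.58% in BLM cells. It took 9 of 4526 BLM barcodes (0.199%, 0.0910 to 0.377) and 12 of 3925 naive barcodes (0.306%, 0.158 to 0.533), and the intervals overlapped. With the doublet filter, 3 BLM and 12 naive barcodes remained. At a minimum of 10% the counts were the same, and at 15% or 20% there were 7 BLM and 12 naive barcodes. Secretory genes outside the immunoglobulins were present in most, as 7 of the 9 BLM and all 12 naive barcodes held 5 or more of the 7. The other BLM barcodes held 2 and 1 of them. Among all barcodes outside this set 13 in BLM and 1 in naive reached 5, and 0 of these were B-like. The 13 were 4 alveolar and 5 interstitial or recruited macrophages, 2 cells of a cluster led by Birc5, Pclaf and Ube2c and 2 barcodes left out as doublets. Reaching 5 was thus not particular to the high barcodes. The 6 BLM barcodes left out had doublet scores of 0.126 to 0.156 just above the highest score kept, 0.112, and none was marked by the automatic threshold. The markers of the best-matching other class, without Ly6c2, which plasma cells share, summed to 1 to 7 UMIs in each of the 9 BLM barcodes and to 4 to 42 in the 12 naive ones.

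**Figure D2:**
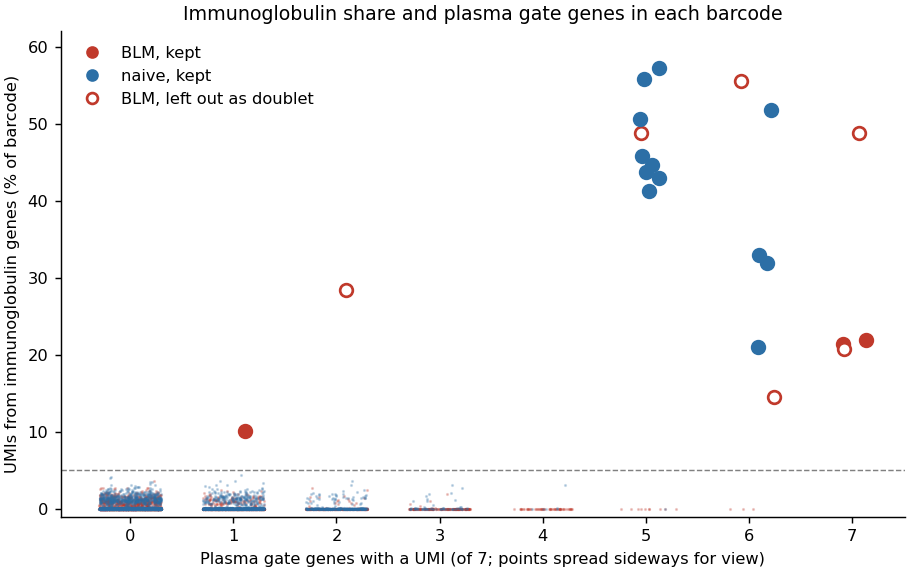
Share of UMIs from immunoglobulin genes (percent) against the number of secretory genes with a UMI (of 7) in every barcode that passed the filters, BLM in red and naive in blue, with the 21 barcodes above the dashed line at 5% drawn large and those left out as doublets drawn open. The large points lie between 10.1% and 57.3%, and 19 of them hold 5 or more of the secretory genes.

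Almost every high-immunoglobulin barcode carried a single heavy-chain isotype, and the isotypes other than IgM differed between the libraries. The leading heavy chain made up 88.6% to 100% of a barcode's heavy-chain UMIs. Ighm led in 6 of 9 BLM and 10 of 12 naive barcodes. Igha led in 3 BLM barcodes and in 0 naive ones, while Ighg2b and Ighg2c each led in 1 naive barcode and in 0 BLM ones. The IgA barcodes held 767, 999 and 518 Igha UMIs beside 18, 0 and 1 Ighm UMIs. One of the 3 IgA barcodes remained after the doublet filter.

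The IgM cells were of uneven strength in BLM and even in naive lungs. The 6 BLM barcodes led by Ighm held 1188, 1150, 934, 765, 50 and 31 Ighm UMIs. The 10 naive ones held from 769 to 1636. The barcode with 50 had 923 UMIs in all and 2 of the 7 secretory genes, and the one with 31 was a B-like cell with 1 of them, so both stood apart from the other 7 BLM barcodes, which held 5 or more. The naive IgG2c barcode held 1916 Ighg2c and 19 Ighg2b UMIs, and the IgG2b barcode 2073 Ighg2b and 67 Ighg2c UMIs. Since these genes share long stretches, the minor count in each cannot be assigned with certainty.

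Igkc, the light chain of every high barcode, ran from 164 to 2622 UMIs in BLM (median 1900) and from 2006 to 4432 in naive barcodes (median 2795.5). Jchain ran from 1 to 356 UMIs in BLM (median 170) and from 107 to 637 in naive barcodes (median 415.5). In the 7 BLM barcodes with 5 or more secretory genes the ranges were 1024 to 2622 for Igkc and 54 to 356 for Jchain, which overlapped the naive ranges. Jchain thus accompanied IgG2b (107 UMIs) and IgG2c (426 UMIs) as well as IgM and IgA, although IgG is secreted without a joining chain. Mzb1 ran from 0 to 68 UMIs in BLM (median 36) and from 5 to 201 in naive barcodes (median 18). Derl3, the derlin, was scarce throughout, from 0 to 14 in BLM and 1 to 9 in naive barcodes, with a median of 4 in both. Ighd, lost from secreting cells, was at 0 in 7 of 9 BLM and 10 of 12 naive barcodes and reached at most 4 UMIs.

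**Figure D3:**
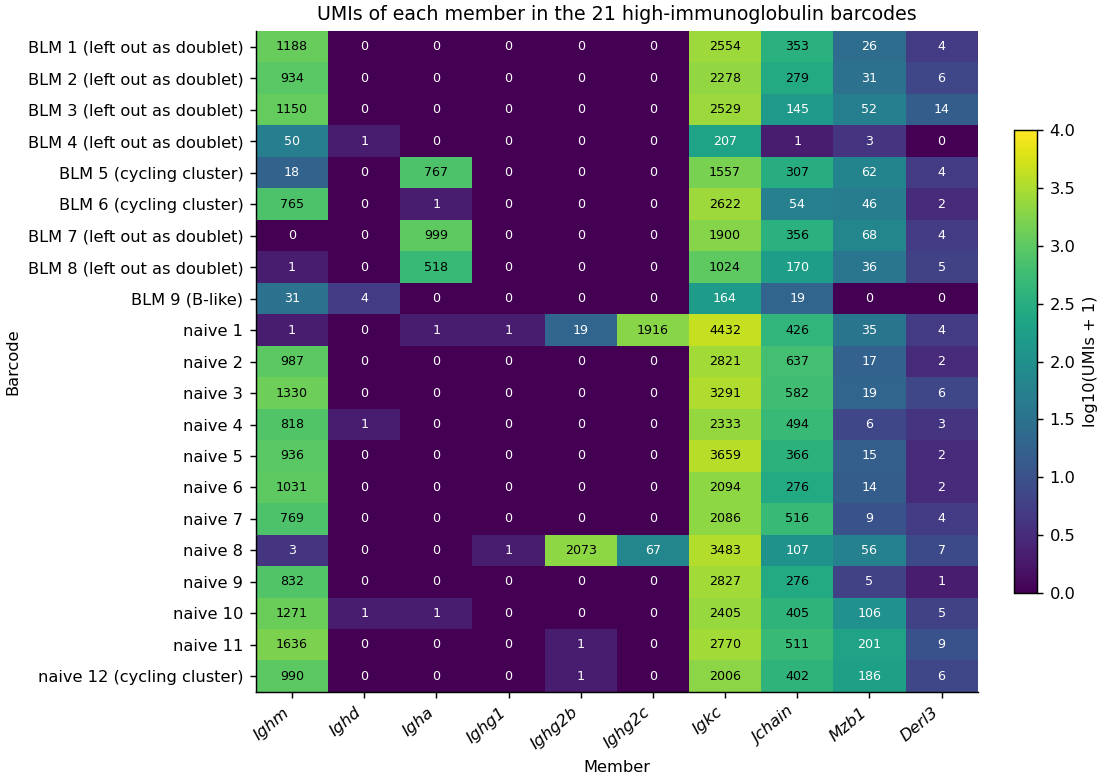
UMIs of each of the 10 genes (columns) in each of the 21 high-immunoglobulin barcodes (named at the side with their library), printed in the cells and coloured by log10(UMIs + 1). Most barcodes are bright in 1 heavy-chain column, with Igha bright in 3 BLM barcodes and Ighg2b or Ighg2c in 1 naive barcode each, while Igkc is bright throughout.

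Summed over the high barcodes, the 10 genes together were lower in BLM, with a log2 ratio of −0.53 (−0.55 to −0.51), and without the barcodes left out as doublets it was −0.95 (−0.99 to −0.91). For Ighm the log2 ratio was −0.66 with and −1.56 without them, and for Igkc −0.51 and −0.84. The barcodes were picked by their immunoglobulin share, so these ratios only describe the 9 BLM and 12 naive barcodes caught. Their intervals leave out the spread between barcodes. These high barcodes, fewer than 0.4% of the cells, held most copies of several members. In BLM they accounted for 44.8% of all Ighm, 60.1% of all Igkc, 94.2% of all Igha, 95.4% of all Jchain, 41.5% of all Mzb1 and 55.7% of all Derl3 UMIs in barcodes that passed the filters. In naive lungs the corresponding shares were 51.2% for Ighm, 60.6% for Igkc, 92.4% for Jchain, 44.1% for Mzb1 and 60.7% for Derl3, with 91.6% of Ighg2b and 92.8% of Ighg2c. Ighd was the reverse, with 88.6% and 86.2% of its UMIs in B-like cells. Ighg1 was nearly absent, with 2 UMIs in each library. All of these genes but Mzb1 and Derl3 count in the immunoglobulin share that picked the barcodes. The part of their UMIs held by the high barcodes thus follows in part from the picking.

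The rule on 3 or more secretory genes within the B lineage gave a different picture, because it met different cells. Its 3 BLM cells held 21 to 42 Ighm, 0 to 30 Igkc and 0 Jchain UMIs, and none was a high-immunoglobulin barcode. Their Ighm level, 6220 CPM, was above that of BLM B-like cells (2828 CPM), and their Igkc level, 3330 CPM, below it (5973 CPM). Of its 17 naive cells 11 were high-immunoglobulin barcodes and 6 were not. On this rule all 7 members with 20 or more UMIs were lower in BLM past 2-fold, beside 20.1% of all genes (26.7% were higher). These 7 passed the minimum through the naive cells (Jchain with 0 BLM and 4597 naive UMIs, Derl3 with 0 and 46), so their count is not read as a result. The 10 genes together were at 10366 and 309866 CPM, a log2 ratio of −4.90 (−5.13 to −4.68). The plasma-like share of the B lineage was 0.472% (0.0974 to 1.37) in BLM and 2.07% (1.21 to 3.30) in naive lungs. With doublets kept in the clustering, a plasma-like sub-cluster did form, with 6 BLM and 11 naive cells, and the log2 ratio of the 10 genes was −0.43 (−0.46 to −0.41). With the high-immunoglobulin barcodes as the plasma-like cells, doublets and BLM barcodes with few secretory genes included, the shares were 1.40% and 1.46%.

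The variable genes joined to these constant regions, named after their values were seen, were read for the barcodes in which both chains gave one. Of 19 such barcodes, 8 shared their leading heavy and light V gene with another barcode of the same library, in 4 pairs. In naive lungs 2 barcodes used Ighv11-2 with Igkv14-126 and another 2 used Ighv12-3 with Igkv4-91. These pairings are known from B-1a cells whose antibodies bind phosphatidylcholine. In BLM 2 barcodes used Ighv5-4 with Igkv12-44, and 2 used Ighv12-3 with Igkv4-57-1, of which 1 rested on a single Ighv UMI. The leading Ighv gene had 1 to 32 UMIs per barcode, and V genes of a family are near copies, so each assignment is uncertain. The 3 IgA barcodes all had Ighv1-26 as their leading heavy V gene, with 20, 9 and 7 UMIs, but 3 different light V genes (Igkv6-23, Igkv1-135 and Igkv12-46).

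Genes of the secretory pathway were measured in the high barcodes against B-like cells of the same library, over UMIs outside the immunoglobulin genes. Since the barcodes were picked by their immunoglobulin share, this is a description. Among all genes, 17.3% in BLM and 14.2% in naive barcodes were higher past 2-fold, and 32.3% and 32% were lower. Of the plasma cell transcription factors, 5 of 6 in BLM and 6 of 6 in naive barcodes were higher. Xbp1, which drives the secretory programme, had 77 UMIs in BLM and 183 in naive high barcodes, log2 ratios of 5.01 (4.48 to 5.55) and 5.24 (4.89 to 5.60). Prdm1, which encodes Blimp-1, gave log2 ratios of 5.42 (4.01 to 6.97) on 14 UMIs and 2.69 (1.09 to 4.05) on 6 UMIs. ER chaperones were higher for 16 of 17 genes in BLM and 17 of 17 in naive barcodes, with medians of 3.19 and 3.22 over the list. Hsp90b1, which folds immunoglobulin chains, was an example, with log2 ratios of 3.45 (3.29 to 3.60) and 3.59 (3.45 to 3.72). The translocon and signal peptidase list had 18 of 19 and 17 of 19 genes higher, ER-associated degradation, the pathway of Derl3, 10 of 10 and 9 of 10, and ER to Golgi transport 8 of 8 and 10 of 10 of those with enough UMIs. B cell identity factors moved the other way, as 7 of 7 were lower in both libraries, Pax5 with 4 UMIs in BLM and 1 in naive high barcodes. Of the receptor signalling genes 7 of 10 and 8 of 10 were lower.

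Cycling markers were seen in part of the high barcodes. In BLM, 4 of 9 held 4 or more of 6 cycling markers (Mki67, Top2a, Birc5, Cdk1, Ube2c and Stmn1), and these included the 3 IgA barcodes. In naive lungs 1 of 12 did so. Their total UMIs, 12214 to 16693 in BLM and 17410 in the naive one, were the highest of the high barcodes in each library.

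In B-like cells few genes of the same lists were past 2-fold between the libraries, with 0 of 16 ER chaperones, 0 of 19 translocon and 0 of 10 degradation genes past 2-fold in either direction and medians of 0.12, −0.02 and −0.27 beside −0.10 for all genes. Of the other lists, 1 of 6 plasma cell factors (Prdm1, on 7 and 21 UMIs) and 1 of 10 ER to Golgi genes were lower, and 0 of 7 identity, 0 of 10 receptor signalling and 0 of 7 class switch genes were past 2-fold. Below that size, some genes had intervals away from 0. Of the 6 plasma cell factors, Ell2, an elongation factor that favours secreted Ighm transcripts, was higher in BLM (0.84, 0.52 to 1.15), as was Irf4 (0.66, 0.33 to 0.99), while Xbp1 (−0.61, −1.11 to −0.11) and Zbtb20 (−0.38, −0.67 to −0.10) were lower. Of 16 ER chaperones, 6 had intervals above 0, among them Pdia4 (0.83, 0.41 to 1.25), Fkbp2 (0.88, 0.42 to 1.34) and Dnajb9 (0.60, 0.29 to 0.90), and 1 below. The latter was Txndc5, a disulphide isomerase (−0.78, −1.19 to −0.38). Of the 10 receptor signalling genes 5 had intervals below 0, with Cd79b lowest at −0.74 (−0.88 to −0.60), and 1 above, Cr2 at 0.18 (0.02 to 0.34). Of the 7 identity factors 3 were below, among them Bach2 at −0.87 (−1.10 to −0.64) and Pax5 at −0.56 (−0.69 to −0.42). Fcmr, the IgM Fc receptor, was at −0.63 (−0.81 to −0.46). Past 2-fold, Pigr, the transporter of polymeric IgA and IgM, was higher in BLM on 26 and 13 UMIs (1.49, 0.48 to 2.57), as were Fcrl5 (1.32, 0.61 to 2.06) and Plscr1 (1.06, 0.67 to 1.44), both of the B-1 or innate-like list. Of that list 2 of 7 genes were past 2-fold higher, beside 1.46% of all genes, and 0 lower, and Cd9 of the same list was lower below 2-fold (−0.69, −1.03 to −0.36). Of 7 germinal centre genes only 1 had 20 or more UMIs.

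Outside the B lineage, transcripts of these genes were counted in classes not known as antibody makers, and far less in BLM than in naive lungs. The 11 classes with 50 or more cells in each library held 3600 BLM and 2827 naive cells. Igkc gave 1210 UMIs (64.0 CPM) in BLM and 4678 UMIs (331 CPM) in naive cells, for a log2 ratio of −2.37 (−2.46 to −2.28). Jchain gave 71 and 299 UMIs, 3.75 and 21.2 CPM, a log2 ratio of −2.49 (−2.89 to −2.12). Ighd gave 3.81 and 15.4 CPM, a log2 ratio of −2.02 (−2.42 to −1.63). These 3 genes differed by similar amounts. Ighm differed less, at 44.1 and 126 CPM, a log2 ratio of −1.52 (−1.64 to −1.40), and its interval did not overlap that of Igkc. Mzb1 gave 1.85 and 5.80 CPM, a log2 ratio of −1.65 (−2.26 to −1.06), and Derl3 was level, at 1.32 and 0.990 CPM, a log2 ratio of 0.42 (−0.58 to 1.47). Of the 25 Derl3 UMIs in BLM, 9 came from 4 type 1 dendritic cells (cDC1), 6 of them from 1 cell. Over the 10 genes the level was 125 and 521 CPM, a log2 ratio of −2.06 (−2.12 to −1.99), against −0.39 in B-like cells.

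The switched isotypes of this background differed between the libraries. Igha, which led 3 secreting BLM barcodes and no naive one, was the gene higher in BLM background, with 113 UMIs in 104 cells (5.98 CPM) against 18 UMIs in 15 cells (1.27 CPM), a log2 ratio of 2.23 (1.51 to 3.04). Ighg2b, which led 1 naive barcode, gave 147 UMIs in 137 naive cells (10.4 CPM) and 8 UMIs in 2 BLM cells, 7 of them in 1 cell (0.423 CPM). Ighg2c gave 120 UMIs in 119 naive cells (8.49 CPM) and 0 in BLM, where the limit of 3 counts is 0.159 CPM. The interval of its log2 ratio had its upper end at −5.42. Ighg1 gave 0 in both. As shares of heavy-chain UMIs in the background, Igha made up 11.003% (9.15 to 13.1) in BLM and 0.785% (0.466 to 1.24) in naive cells, Ighg2b 0.779% and 6.41%, and Ighg2c 0% and 5.24%. In high-immunoglobulin barcodes the shares were 35.6% for Igha in BLM, and 14.3% for Ighg2b and 13.5% for Ighg2c in naive lungs. In B-like cells all 3 were below 0.8% in both libraries. Ighd made up 26.3% and 26.2% of the heavy-chain UMIs of B-like cells and under 0.1% of those of high-immunoglobulin barcodes. It was 7.01% (5.53 to 8.75) in BLM and 9.51% (8.34 to 10.8) in naive background. Ighd in both backgrounds, Igha in BLM and Ighg2b and Ighg2c in naive background thus lay between the B-like and high-immunoglobulin make-up of their own library. Igha in naive background (18 UMIs) lay above both its B-like share of 0.0644% and its high-immunoglobulin share of 0.0136%. Ighm likewise stood at 81.1% (78.6 to 83.5) in BLM and 77.8% (76.1 to 79.5) in naive background, above both sets of its library.

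**Figure D4:**
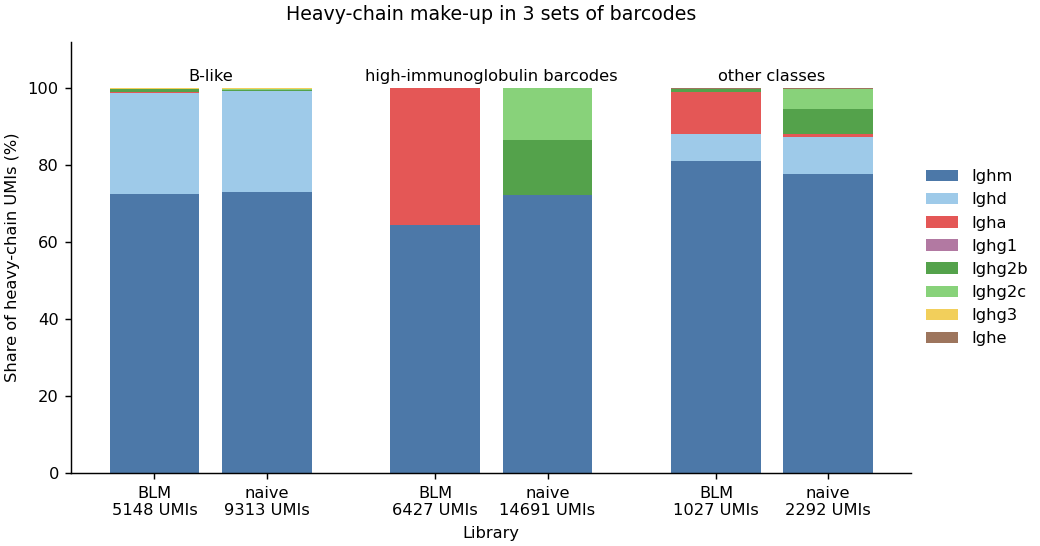
Shares of heavy-chain UMIs (percent, stacked to 100) by gene in B-like cells, high-immunoglobulin barcodes and cells of 11 other classes, for each library, with the number of heavy-chain UMIs under each bar. B-like bars are nearly alike (72.5% and 73.0% Ighm), while Igha appears in the BLM bars and Ighg2b with Ighg2c in the naive bars of the other sets.

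Across the 11 classes Igkc was nearly even per UMI and uneven per cell. In BLM it ran from 44.3 to 86.7 CPM, a 1.96-fold range, and in naive lungs from 278 to 516 CPM, a 1.86-fold range. Counted per cell, it ran from 0.102 UMIs in neutrophils to 1.02 in the cluster led by Birc5, Pclaf and Ube2c in BLM, and from 0.468 to 4.11 in the same classes in naive lungs. The range of the mean depth of these classes, 1344 to 16132 UMIs in BLM and 1588 to 12391 in naive lungs, was of similar width. Igkc reached 25 UMIs at most in a BLM and 68 in a naive cell of these classes, and the 5 highest cells held 7.52% and 3.68% of its UMIs. Ighm was less even, from 15.8 to 149 CPM in BLM (9.40-fold) and from 60.7 to 347 CPM in naive lungs (5.71-fold). In both libraries alveolar macrophages were lowest and type 2 dendritic cells (cDC2) highest. The cDC2 values rested on few cells, as the 5 highest held 38.6% of the Ighm UMIs in BLM and 47.7% in naive lungs. There 1 cell held 39 of 220. For Igkc in cDC2 the 5 highest cells held 59.0% in BLM and 39.4% in naive lungs. The count of Igkc per Ighm ran in BLM from 0.557 in cDC2 and 0.633 in T cells to 4.13 in alveolar macrophages. In naive lungs it ran from 1.49 in cDC2 to 6.00 in the cluster led by Sparc, Eln and Igfbp7 (84 Igkc and 14 Ighm UMIs). In B-like cells it was 2.11 and 2.18, and in the high barcodes 3.59 and 3.23. It lay below the B-like value in 9 of 11 BLM classes and in 6 of 11 naive classes.

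The BLM to naive difference of Ighm also varied by class. It was −2.70 (−3.001 to −2.401) on the log2 scale in interstitial or recruited macrophages, −1.94 (−2.27 to −1.62) in alveolar macrophages, −0.70 (−0.95 to −0.46) in T cells and 0.08 (−0.54 to 0.68) in NK cells. T and NK cells thus had an Ighm level closer to equal in the libraries than macrophages had. T cells had 116 and 190 CPM of Ighm in BLM and naive lungs, from 245 UMIs in 184 cells and 347 UMIs in 243 cells, with at most 6 and 14 in a cell. Igha was at 9.03 and 0.547 CPM in T cells and at 3.92 and 0.494 CPM in alveolar macrophages. In cDC1 it reached 23.4 and 12.5 CPM, on 11 and 7 UMIs, the highest class in each library. The source of the UMIs in each class was not tested, and free RNA taken up in wells and B cells caught with other cells were not told apart.

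**Figure D5:**
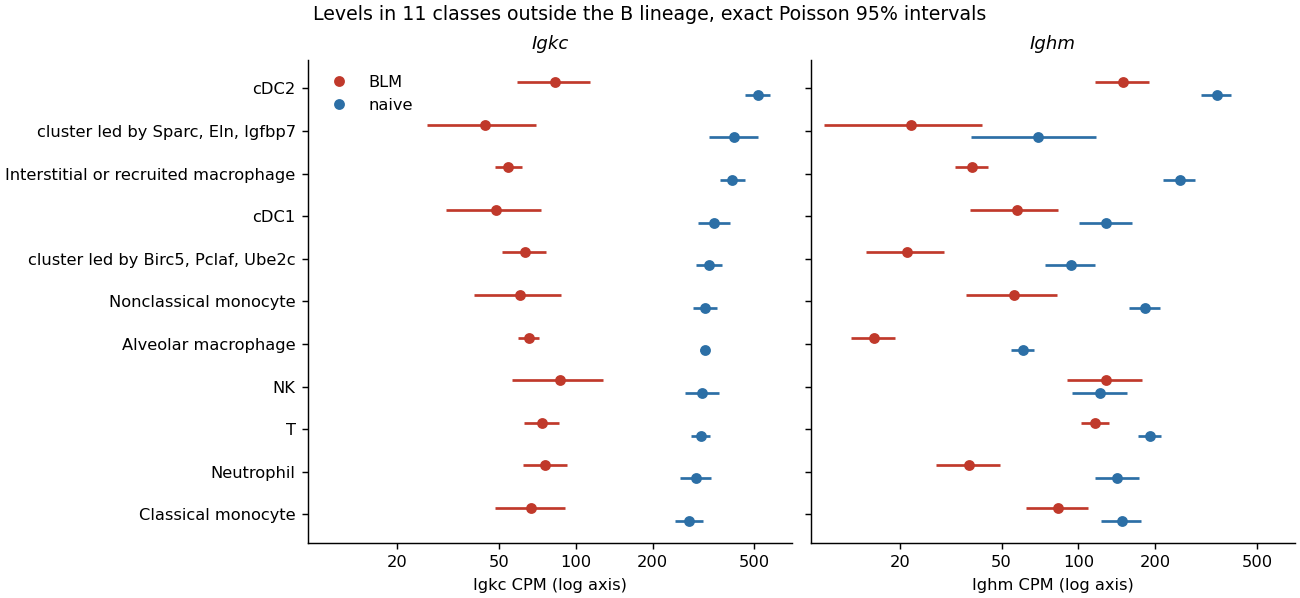
Levels of Igkc (left) and Ighm (right) in each of the 11 classes outside the B lineage, in CPM on a log axis, BLM in red and naive in blue, with lines for exact Poisson 95% intervals. Igkc points line up within each library (44.3 to 86.7 CPM in BLM, 278 to 516 CPM in naive lungs), whereas Ighm points scatter from 15.8 to 149 CPM and from 60.7 to 347 CPM.

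Relative to B-like cells of the same library, the background was small for the receptor genes and Mzb1 and near the whole B-like level for Jchain. Igkc in other classes stood at 1.09% of its B-like level in BLM and 4.14% in naive lungs, Ighm at 1.57% and 3.45%, Ighd at 0.372% and 1.17% and Mzb1 at 0.642% and 1.74%, leaving out the high barcodes. For Jchain the percentages were 82.5% (36.1 to 232) and 123% (85.0 to 183), and for Derl3, on few UMIs, 87.1% (21.7 to 759) and 30.6% (11.1 to 97.2). For Ighg2b they were 1.43% (0.577 to 3.10) in BLM and 74.2% (48.7 to 117) in naive lungs. Ighg2c in naive lungs stood at 121% (68.2 to 234). Igha stood at 46.3% (27.7 to 82.3) in BLM and 39.4% (15.0 to 121) in naive lungs. Its log2 ratio was 2.23 in the background and 1.99 in B-like cells, and the part of background in the latter was not tested. Among barcodes with 3 or more genes of plasmacytoid dendritic cells, which are known to express Jchain and Mzb1, 6 in BLM and 15 in naive lungs, Jchain had 0 UMIs in both and Mzb1 had 0 and 15.

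Over 29 profiles (a class in a library, 20 or more cells each) the levels of the members were set beside those of all other genes, on the log2(CPM + 10) scale. The profiles share libraries and the correlations are a description. For Igha and Jchain they rest on few barcodes, since 767 of 929 Igha UMIs came from 1 BLM barcode, and 362 BLM and 457 naive of 1255 Jchain UMIs from the cluster led by Top2a, Pclaf and Mki67, where single barcodes held up to 307 and 402. Ighm was most like Pou2af1 (r = 0.93), Ly6d (0.91) and Ms4a1 (0.91), and Igkc most like Cd79a (0.90), Ms4a1 (0.89) and Pou2af1 (0.89). Ighd was most like Fcmr (0.96), Srpk3 (0.95) and Fcer2a (0.94), and Mzb1 most like Ms4a1 (0.96), Pou2af1 (0.95) and Tnfrsf13c (0.93). Jchain was nearest to Hist1h2ae (0.81), Eaf2 (0.81) and Rmi2 (0.80), and Igha to Foxp3 (0.71), Tnfrsf8 (0.69) and Hist1h2ae (0.68). Ighg2b was nearest to Ankfn1 (0.75) and Ighg2c to 4921507P07Rik (0.83), on 228 and 142 UMIs. Ighg1 and Derl3 had under 100 UMIs in these profiles and were not ranked.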

How the data were processed

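Living CD45+ lung leukocytes of 1 BLM and 1 naive pool were profiled by single-cell RNA-seq. For each library the authors deposited UMI counts of every gene in every cell, made per the submitters' processing notes and the file headers with the BD WTA Rhapsody Analysis Pipeline 1.8 on GRCm38 and GENCODE vM19 with recursive UMI error correction. Gene positions came from GENCODE vM21 (GRCm38).

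Filters on genes (200 or more) and mitochondrial UMIs (15% or less) were passed by most barcodes (4526 BLM, 3925 naive), and the top 3% of Scrublet scores (scanpy 1.11.5) were left out. Libraries were integrated in Seurat 5.3.0 (R 4.3.3) on 2000 variable genes and 30 dimensions, and clustered at resolution 0.5, with 20 dimensions within the B lineage. Clusters were named from fixed markers. UMIs were summed per class and given as CPM with exact Poisson intervals, as log2 ratios with exact conditional intervals and as shares with Clopper-Pearson intervals (scipy 1.17.1, 95%). A count of 0 was given the limit of 3 counts. No test between groups was made, as each group is 1 library. UMIs were not divided by length, since each is 1 molecule. Genes with 20 or more UMIs were ranked, and 2-fold was the size used. The genes named were the 10 members, up to the 3 highest and 3 lowest genes of each list by the interval end nearer 0, and the 3 most alike genes per member. Hsp90b1, Xbp1, Prdm1, Pax5 and V genes in the high-immunoglobulin barcodes were picked after their values were seen. The members and lists were chosen with earlier results of these data known. On simulated data with 200 of 8854 genes changed (log2 fold of 2), 96.1% of intervals covered the true value, and 99% of changed and 1.80% of unchanged genes passed 2-fold. The simulated counts were Poisson draws, as the intervals assume, so this coverage was built in. Clumping of UMIs in single cells and spread between mice were not simulated, so the result does not extend to them.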

Additional observations from a re-analysis of the deposited data

Results flagged for a closer look

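The barcodes left out as doublets (135 BLM and 117 naive) entered no comparison by class, and in BLM they held more of several members than in naive lungs. Ighm was at 3855 CPM in the BLM and 356 CPM in the naive ones, Igkc at 11880 and 908 CPM, and Mzb1 at 254 and 23.7 CPM. Igha was at 1643 and 2.37 CPM, Jchain at 1412 and 16.6 CPM, and Derl3 at 36.7 and 1.19 CPM. Of the 9 high-immunoglobulin BLM barcodes 6 were among them, and of the 12 naive ones 0. Those 6 held most of the UMIs of each of these genes in the BLM set. For Ighm 3 of them held 1188, 1150 and 934 UMIs beside 3570 in all 135 barcodes. The level without them was not compared.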

How the results depend on the processing

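No paired analysis was possible because each group is 1 library. The log2 ratio of the 10 genes ranged from −0.42 to −0.22 in B-like cells and from −2.27 to −2.02 in other classes over the alternatives, and kept its direction. In B-like cells it was −0.35 at a mitochondrial limit of 10% and −0.22 with a gate on single cells. In other classes it was −2.27 without integration, and the Ighm share of heavy-chain UMIs there was 83.2% in naive lungs without integration and 84.1% in BLM with the gate. In plasma-like cells it was −0.43 with doublets kept, −2.02 with immunoglobulin genes among the variable genes, −5.45 over UMIs outside immunoglobulin genes, −5.23 without the highest cell, and −0.53 and −0.95 for high-immunoglobulin barcodes with and without doublets. Mzb1 there went from −2.58 to 0.0022 (−0.24 to 0.24) with doublets kept. The plasma-like share in BLM was 0% at a mitochondrial limit of 10%, at resolution 1.0 and without integration, 1.40% for high-immunoglobulin barcodes with doublets, and 28.5% (8.53% in naive) with the gate, whose cells outside the B lineage were mostly macrophages (178 of 232 in BLM). Genes past 2-fold in plasma-like cells numbered 189 higher and 100 lower with doublets kept, 348 lower with immunoglobulin genes variable, 1071 higher and 972 lower with the gate, 114 higher over UMIs outside immunoglobulin genes, 103 and 80 at 50 or more UMIs, and 2508 and 5504 with no minimum. In B-like cells 716 were lower with the gate, 51 higher and 135 lower at 50 or more UMIs, and 1942 and 3443 with no minimum. The sets of cells and genes differ between these settings, and the cause of each change was not tested. The 2 settings on high-immunoglobulin barcodes were added after the data were seen. With 1 library per group, the spread between mice is unknown.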
